A study of Mus musculus with 16 samples.

Results

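The angiopoietin-like genes Angptl1, Angptl2, Angptl4, Angptl6 and Angptl7 were looked up by symbol in the probe annotation of a mouse bead array. Of these 5 genes, 3 (Angptl7, Angptl4 and Angptl1) had a named probe, 1 probe each, among 25697 probes in all. Angptl2 and Angptl6 were not analysed here. The genes were chosen by family name, with earlier results of the same arrays known, and the family drew notice through the measured low Angptl7 signal of wild-type cells given IL-4, so the values of the members in that comparison are given as a description and without a test. The other comparisons that use the wild-type IL-4 arrays are treated in the same way.

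The cells were cultured fibro/adipogenic progenitors, the mesenchymal cells of skeletal muscle that can become fibroblasts or adipocytes, from mice of the Balb/cJ background. There were 4 groups of 4 arrays: IL4RA -/- (Il4ra knockout) cells given recombinant IL-4, IL4RA -/- cells given vehicle, wild-type cells given recombinant IL-4, and wild-type cells given vehicle. IL-4 is a type 2 cytokine that signals through the receptor chain encoded by Il4ra. The sources used here do not give the dose and time of IL-4 or the age and sex of the mice. The design text calls the arrays biological replicates but does not say whether they came from separate mice, so the p-values measure the spread between these samples.

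Angiopoietin-like proteins are secreted glycoproteins. Most have a coiled-coil region followed by a fibrinogen-like domain, the layout of the angiopoietins, but they do not bind the angiopoietin receptors of endothelial cells. ANGPTL4 inhibits lipoprotein lipase, the enzyme that releases fatty acids from circulating triglyceride, and its gene is induced by fatty acids through PPAR receptors, by fasting and by hypoxia. ANGPTL7 is best known in humans from the cornea and the outflow tissue of the eye, where it is secreted into the extracellular matrix. ANGPTL1 is an orphan ligand described as antiangiogenic in experimental systems.

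Signals are on a scale read as log2, on which every array had a median of 7.85 and a minimum of 7.72. Of all probes, 57.0% had a mean within 0.15 of that minimum, where differences are compressed. The shares of all probes or named genes given below take in such dim probes, so they run low beside genes of brighter signal. On the first principal component (60.3% of the variance) positions ran from 18.7 to 20.8 in wild type with IL-4 and from -8.15 to -4.10 on the remaining arrays. Knockout vehicle arrays 2 and 3 lay at 6.95 and 7.52 on the third component, against -4.77 to 3.14 for all other arrays. The targeted gene Il4ra had 0 named probes and could not check the genotype labels. Of the progenitor markers, 7 of 8 were measured and 0 lay within 0.15 of the array minimum on all arrays, and the brightest were Dcn, Thy1, Col1a1 and Pdgfra, whose means under vehicle in wild type were 11.7, 11.7, 11.2 and 10.2. Cd34 stood at only 7.92 there. In the same group the adipocyte marker Adipoq stood at 12.7 and the smooth muscle marker Acta2 at 13.9, above every progenitor marker. The other adipocyte markers lay at 9.04 (Plin1) or below, and the other pericyte and smooth muscle markers at 9.25 (Mcam) or below.

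Angptl7 differed most between the groups. Its signal was 9.85, 9.98, 9.92 and 10.001 in knockout cells with IL-4, 9.85, 9.83, 10.05 and 9.73 in knockout cells with vehicle, 8.02, 8.13, 8.05 and 8.13 in wild-type cells with IL-4, and 9.31, 9.24, 9.39 and 9.23 in wild-type cells with vehicle. Both knockout groups were highest and overlapped each other, wild-type vehicle lay below them, and wild-type IL-4 lay below every other array. The group means were 9.94 ± 0.07, 9.87 ± 0.13, 8.08 ± 0.06 and 9.29 ± 0.08 in the same order (SD, n = 4 arrays each).

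Because the Angptl7 signal differed most between the groups, the upstream sequence of this gene is shown. It covers the 250 bases before the RefSeq transcription start, at chr4:148500463-148500712 of GRCm38.p6 on the minus strand, read 5′ to 3′ along the gene. Capitals mark the TATA-like run TATTTAA, which was picked after the sequence had been seen.

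Angptl7: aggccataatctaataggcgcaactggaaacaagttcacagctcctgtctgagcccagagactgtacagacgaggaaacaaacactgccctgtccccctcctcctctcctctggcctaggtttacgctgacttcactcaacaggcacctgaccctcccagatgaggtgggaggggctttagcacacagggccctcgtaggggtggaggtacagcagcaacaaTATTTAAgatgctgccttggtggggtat

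The run begins at position -28 and occurs, on either strand, in 4.18% of the same window of 32851 RefSeq promoter entries. On both strands the window holds no match to TTC and GAA with 4 bases between them, the spacing preferred by STAT6, the factor downstream of IL-4 (5.85% of the promoter windows hold one), to the same pair with 3 bases between (7.02%), to the PPAR-type repeat of AGGTCA with 1 base between the copies (0.0335%) or to TATAAA (12.4%). The Angptl1 window holds none of the 5 motifs, TATTTAA included. Such letters describe the window and say nothing of binding elsewhere.

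In the RefSeq annotation Angptl7 lies within the span of Mtor, the gene of a growth-regulating kinase. The brighter of 2 Mtor probes averaged 8.64 in knockout and 8.78 in wild-type cells under vehicle (log2 difference -0.13 ± 0.05, SE; limma adjusted p = 0.191), and with IL-4 in wild type it differed by -0.23 ± 0.05 (adjusted p = 0.00315). The second Mtor probe stood near the array minimum. Angptl1 lies within Ralgps2, whose 3 probes had group means of 7.76 to 7.82, near the array minimum.

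**Figure D1:**
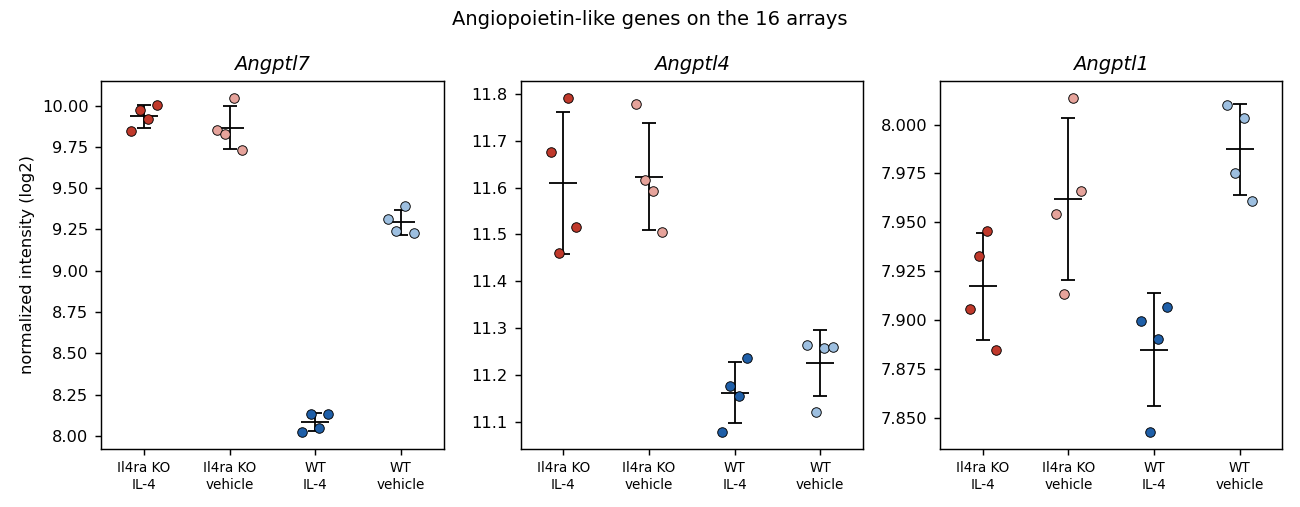
Normalized log2 intensity of Angptl7, Angptl4 and Angptl1 (y axes, each with its own range) in the 4 groups, with 1 point per array and bars for the mean and SD. Angptl7 was lowest in wild type with IL-4 (8.02 to 8.13), Angptl4 was higher in both knockout groups, and the Angptl1 groups lay between 7.84 and 8.01.

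The first comparison asked whether genotypes differ without IL-4. Angptl7 was higher in knockout than in wild-type cells given vehicle, by 0.57 ± 0.06 on the log2 scale (SE; 1.49-fold; 95% confidence interval 0.45 to 0.70; limma adjusted p = 7.69e-05). All 4 knockout arrays (9.73 to 10.05) lay above all 4 wild-type arrays (9.23 to 9.39). Angptl4, the lipoprotein lipase inhibitor, was also higher in the knockout. Its signal was 11.78, 11.62, 11.59 and 11.51 in knockout cells and 11.26, 11.12, 11.26 and 11.26 in wild-type cells, all given vehicle, and the groups did not overlap. The difference was 0.40 ± 0.07 (SE; 1.32-fold; interval 0.25 to 0.54; limma adjusted p = 0.00622).

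Angptl1, the orphan ligand, gave 7.95, 7.91, 8.01 and 7.97 in knockout cells with vehicle and 8.01, 7.98, 8.003 and 7.96 in wild-type cells with vehicle. These ranges overlapped, and the difference of -0.03 ± 0.02 did not pass (SE; interval -0.07 to 0.02; limma adjusted p = 0.702). The signal of this probe lay only 0.16 to 0.26 above the array minimum in every group, where differences are compressed. In all, 2 of the 3 members passed the threshold, both higher in the knockout, and 2.69% of all probes passed (1.18% higher, 1.50% lower). The same 2 members had groups that did not overlap, as did 8.06% of all probes. The wild-type vehicle arrays also served the IL-4 comparison that drew notice to Angptl7, so this result shares arrays with it.

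Without knockout vehicle arrays 2 and 3, which stood apart, the differences were 0.50 for Angptl7 (limma adjusted p = 0.000801) and 0.42 for Angptl4 (0.0430). Leaving out those arrays is a setting chosen after seeing the data. Across all alternatives the adjusted p-values reached at most 0.00812 for Angptl7 and 0.0430 for Angptl4.

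The second comparison asked whether IL-4 acts on these genes without its receptor chain. Angptl7 differed by 0.07 ± 0.06 between knockout cells with IL-4 and with vehicle (SE; interval -0.05 to 0.19; limma adjusted p = 0.932). Across the alternatives this Angptl7 difference ran from 0.02 to 0.14 and never passed. It was largest without knockout vehicle arrays 2 and 3 (0.14 ± 0.06, SE). Angptl4 was 11.68, 11.46, 11.79 and 11.52 with IL-4, a range that overlaps the vehicle values above, with a difference of -0.01 ± 0.07 (interval -0.16 to 0.14; limma adjusted p = 0.994). Angptl1 was 7.91, 7.93, 7.95 and 7.88 with IL-4 and differed by -0.04 ± 0.02 (interval -0.09 to 0.00; limma adjusted p = 0.894). So 0 of 3 members passed, as did 0% of all probes in limma, and 0 of 3 had an unadjusted p below 0.05, where 1439 of all probes did. With a trended, robust variance model limma called 1 probe, which was no member.

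In wild-type cells IL-4 went with a lower Angptl7 signal. The log2 difference, IL-4 minus vehicle, was -1.21 ± 0.06 (SE), a 2.32-fold lower signal, and the 4 arrays of each group given above did not overlap. With IL-4 the probe stood 0.36 above the array minimum, so the floor limits this fold: with the minimum subtracted before taking logs (offset 16) the fold was 5.74. Angptl4 was 11.08, 11.18, 11.16 and 11.24 with IL-4, which overlaps the vehicle values, with a difference of -0.06 ± 0.07. Angptl1 was 7.90, 7.84, 7.89 and 7.91 with IL-4, below all vehicle values, with a difference of -0.10 ± 0.02. Angptl7 and Angptl1 were among the probes past the threshold, 2 of 3 members, where 13.7% of all probes passed (7.32% lower). This comparison was in view when the members were picked, and the count carries no further reading.

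The wild-type response minus the knockout response was -1.28 ± 0.08 for Angptl7 (SE, log2 scale), -0.05 ± 0.10 for Angptl4 and -0.06 ± 0.03 for Angptl1. This contrast contains the wild-type response already in view. Under IL-4, knockout cells were higher than wild-type cells by 1.85 ± 0.06 for Angptl7 (3.61-fold, or 10.4-fold with the minimum subtracted), by 0.45 ± 0.07 for Angptl4 and by 0.03 ± 0.02 for Angptl1. For Angptl4 the genotype difference was thus 0.40 under vehicle and 0.45 under IL-4, with the arrays of the 2 genotypes apart in both media. For Angptl7 it was 0.57 and 1.85. These contrasts share arrays with each other.

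**Figure D2:**
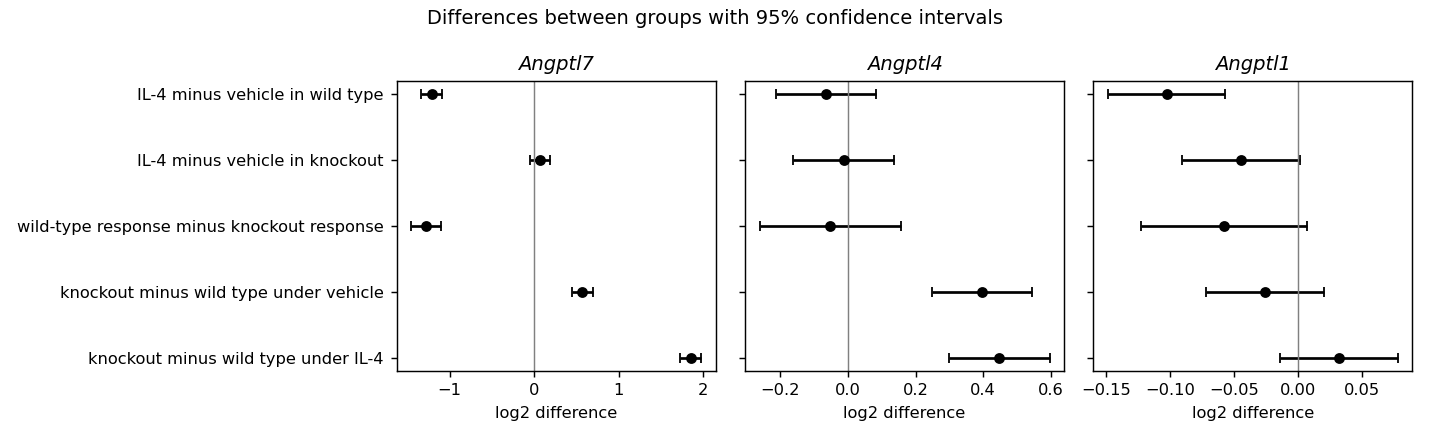
Log2 differences between groups (x axes, each with its own range) for Angptl7, Angptl4 and Angptl1, as points with 95% confidence intervals. For Angptl7 and Angptl4 both knockout minus wild-type intervals lie above 0, and the IL-4 interval in the knockout includes 0 for all 3 genes.

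Markers of other cells were read beside these differences. Fewer cells of a type and less RNA per cell cannot be told apart in such bulk RNA. Between knockout and wild type under vehicle, 0 of 6 adipocyte markers passed, and their mean level lay at 8.96 to 8.97 in knockout and 8.92 to 8.97 in wild-type arrays. The progenitor markers lay at 10.30 to 10.42 in knockout and 10.09 to 10.19 in wild-type arrays, with 1 of 7 higher, the matrix proteoglycan gene Dcn (0.52 ± 0.08, SE; limma adjusted p = 0.00267). The macrophage and leukocyte markers lay at 8.18 to 8.26 in knockout and 8.15 to 8.18 in wild-type arrays, with 2 of 6 higher, Cd14 (0.24) and Cd74 (0.08, 1 of 2 probes), while Ptprc, Itgam and Adgre1 were within 0.15 of the array minimum on all arrays. Of the pericyte and smooth muscle markers 2 of 7 were lower, Mcam (-0.41, 1 of 3 probes) and Acta2 (-0.39, 1 of 4 probes), with levels of 8.79 to 8.84 in knockout and 8.89 to 8.95 in wild-type arrays. None of the 6 tenocyte, 8 endothelial and 7 myogenic markers passed in that comparison. Of these, 1 tenocyte, 6 endothelial and 5 myogenic markers lay within 0.15 of the array minimum on all arrays, where differences are compressed. Over all named genes, 1.42% were higher and 1.85% lower in the knockout under vehicle. The part of the cell type markers in the Angptl7 and Angptl4 differences was not tested.

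In wild-type cells the adipocyte markers lay at 8.72 to 8.80 with IL-4, against 8.92 to 8.97 with vehicle, and 3 of 6 were lower, led by Adipoq (-0.44) and Plin1 (-0.39). The macrophage and leukocyte markers lay at 7.96 to 7.99, against 8.15 to 8.18, and 1 of 6 was lower, the lysozyme gene Lyz2 (-1.07, 2 of 3 probes). Cd14 and Cd74 differed by -0.06 and -0.03 and did not pass. Ptprc, Itgam and Adgre1 were within 0.15 of the minimum on all arrays, so the lower level rests mainly on Lyz2. The endothelial markers lay at 7.85 to 7.86 with IL-4 and 7.86 to 7.89 with vehicle, and Pecam1, Cdh5, Tie1, Emcn, Vwf and Esam were within 0.15 of the minimum on all arrays, while 1 of 8, Tek, was lower (-0.14). Of the pericyte and smooth muscle markers 1 of 7 was lower, Mcam (-0.58, 2 of 3 probes), with levels of 8.83 to 8.88 with IL-4 and 8.89 to 8.95 with vehicle. The progenitor markers lay at 10.14 to 10.30 with IL-4 and 10.09 to 10.19 with vehicle, with 2 of 7 higher, Thy1 (0.57) and Cd34 (0.14), and 1 lower, Dcn (-0.34, 2 of 2 probes). None of the 6 tenocyte and 7 myogenic markers passed, and 1 tenocyte and 5 myogenic markers lay within 0.15 of the minimum on all arrays. Over all named genes, 7.14% were higher and 8.79% lower with IL-4 in wild type. The part of the cell type markers in the low Angptl7 signal was not tested.

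The angiopoietins, to which the family owes its name, also differed with IL-4 in wild type. Angpt1, the agonist of the receptor Tek, was 8.03, 8.002, 7.997 and 8.09 with IL-4 and 8.41, 8.39, 8.54 and 8.45 with vehicle, and fell by 0.42 ± 0.05 (SE; limma adjusted p = 3.11e-05). Its second probe stood at 7.81 with IL-4 and 7.80 with vehicle, near the array minimum. Angpt4, another ligand of Tek, was 7.92, 7.88, 7.91 and 7.84 with IL-4 and 8.35, 8.33, 8.52 and 8.47 with vehicle, and fell by 0.53 ± 0.04 (limma adjusted p = 7.86e-07). Angpt2, which can block Tek, ran the other way. It was 8.35, 8.25, 8.34 and 8.33 with IL-4 and 8.01, 7.97, 7.94 and 7.98 with vehicle, and rose by 0.34 ± 0.03 (limma adjusted p = 1.64e-07). Its second probe stood at 7.83 with IL-4 and 7.81 with vehicle. The brightest probes came near the array minimum too. In wild type Angpt4 with IL-4 lay 0.17 above it, Angpt1 with IL-4 0.30 and Angpt2 with vehicle 0.25. The floor therefore limits the sizes of these changes. None of the 3 genes had overlapping groups in this comparison, a property of 16.3% of all probes.

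In the knockout no angiopoietin passed between IL-4 and vehicle. The differences were 0.04 ± 0.05 for Angpt1, -0.02 ± 0.03 for Angpt2 and 0.04 ± 0.04 for Angpt4 (SE; limma adjusted p = 0.957, 0.971 and 0.952). The interaction was -0.47 ± 0.07 for Angpt1, 0.36 ± 0.04 for Angpt2 and -0.57 ± 0.06 for Angpt4 (limma adjusted p = 0.000609, 8.90e-06 and 2.83e-05), in a contrast that 8.39% of all probes passed. Unlike for Angptl7, no genotype difference under vehicle passed for these genes, at 0.05 ± 0.05, -0.03 ± 0.03 and 0.08 ± 0.04 (limma adjusted p = 0.777, 0.751 and 0.474), and the difference between the genes was not tested.

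The receptor gene Tek had means of 8.36 ± 0.05 and 8.37 ± 0.06 in knockout cells with IL-4 and vehicle, and 8.11 ± 0.08 and 8.25 ± 0.07 in wild-type cells with IL-4 and vehicle (SD, n = 4 each). Its wild-type difference of -0.14 ± 0.04 passed (SE; limma adjusted p = 0.0442), but not without single arrays: the call held only without knockout vehicle arrays 3 or 4, knockout IL-4 array 3, wild-type vehicle array 2 or wild-type IL-4 array 8, among the 16 arrays left out in turn. Tie1, the related receptor, stood at 7.79 to 7.82 in the 4 groups, near the minimum. Angptl8, the family member that lacks a fibrinogen-like domain, was lower in knockout (7.88 ± 0.03) than in wild-type cells (7.99 ± 0.04) under vehicle, by 0.10 ± 0.02 (SE; limma adjusted p = 0.0191). That call ended when only these 2 groups were fitted (adjusted p = 0.0736). Among the fits with arrays left out it ended without knockout vehicle array 1, without wild-type vehicle arrays 1, 2 or 4, and without knockout vehicle arrays 2 and 3 together. The Angptl8 probe lay only 0.13 to 0.26 above the array minimum in every group, where differences are compressed. Its wild-type values with IL-4 and with vehicle overlapped. Over the 6 measured genes of this group (Angpt1, Angpt2, Angpt4, Tek, Tie1 and Angptl8), 1 was higher and 4 lower with IL-4 in wild type, with a median of -0.11, where 7.14% of named genes were higher and 8.79% lower and the median was 0.00.

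**Figure D3:**
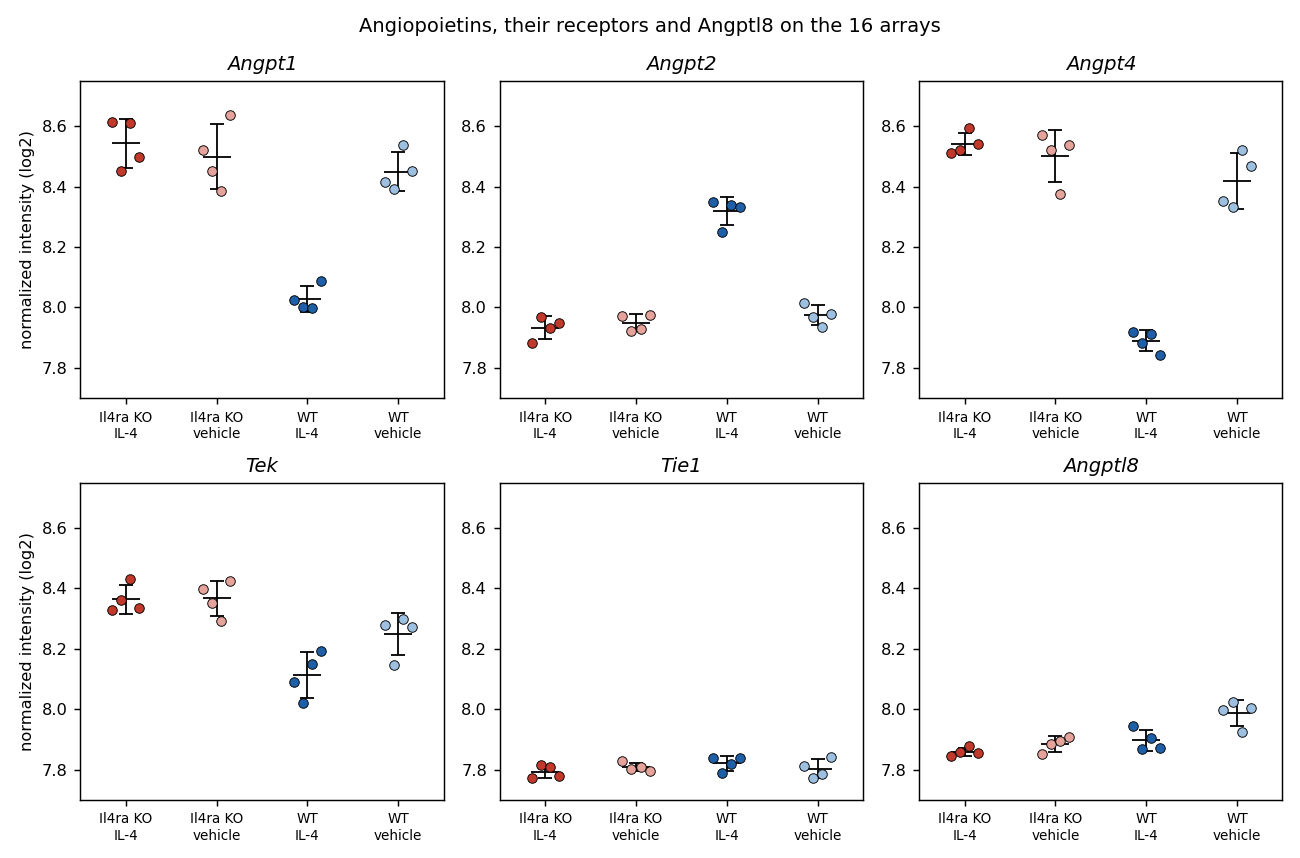
Normalized log2 intensity (y axis, the same range in all panels) of Angpt1, Angpt2, Angpt4, Tek, Tie1 and Angptl8, brightest probe of each, in the 4 groups, with 1 point per array and bars for the mean and SD. Angpt1 and Angpt4 were lowest and Angpt2 highest in wild-type cells with IL-4.

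The genes around ANGPTL4 action were read next. Lpl, the gene of lipoprotein lipase, was among the brightest probes, at 14.52, 14.40, 14.52 and 14.43 with IL-4 and 14.62 on all 4 vehicle arrays in wild type. Its difference of -0.15 ± 0.03 passed (SE; limma adjusted p = 0.00273), and the equal vehicle values reflect a shared rank at the top of a normalized scale, so the spread is understated. The call ended with the minimum subtracted and with the trended, robust variance model. Under vehicle the Lpl difference between knockout and wild type was -0.01 ± 0.03 (limma adjusted p = 0.911). Gpihbp1, which carries the enzyme on capillary endothelium, stood at 7.84 to 7.85 in all groups. Of 14 measured genes of lipoprotein lipase handling, 0 were higher and 0 lower in the knockout under vehicle, with a median of 0.01. With IL-4 in wild type 1 was higher, Sel1l (0.25, 1 of its 3 probes), and 3 were lower, among them Apoe (-0.68) and Vldlr (-0.23, 1 of its 5 probes), with a median of -0.03. In that comparison 7.14% of named genes were higher and 8.79% lower. The Vldlr call ended without knockout IL-4 array 1, wild-type vehicle arrays 2, 3 or 4 or any 1 of the wild-type IL-4 arrays.

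The PPAR target genes, a group that includes Angptl4, came next. Under vehicle 0 of 19 measured were higher and 3 lower in knockout than in wild-type cells, with a median of -0.01, where 1.42% of named genes were higher and 1.85% lower. Acaa2, a thiolase that cuts fatty acids in mitochondria, was lower by 0.58 ± 0.06 (SE; 3 of 4 probes; limma adjusted p = 0.000172), and Plin4, a lipid droplet protein, by 0.49 ± 0.09 (limma adjusted p = 0.00951). With IL-4 in wild type 11 of the 19 were lower and 0 higher, with a median of -0.27, led by Plin4 (-0.65) and the fatty acid binding protein Fabp5 (-0.65, 1 of 2 probes), while the Angptl4 interval ran from -0.21 to 0.08. In that comparison 8.79% of named genes were lower and 7.14% higher. These shares take in genes near the array minimum. Of the 12040 probes more than 0.15 above the minimum on at least 4 arrays, 3855 passed in either direction.

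Of 18 hypoxia-inducible genes, as Angptl4 is too, 2 were higher and 0 lower in the knockout under vehicle, with a median of 0.03. They were Adm, the vasodilator peptide adrenomedullin (0.33 ± 0.05, SE; limma adjusted p = 0.00402), and P4ha2, a collagen prolyl hydroxylase (0.30 ± 0.07; limma adjusted p = 0.0305), whose call was lost on leaving out any 1 of knockout vehicle arrays 1, 2 and 3, both of arrays 2 and 3, or any 1 of wild-type vehicle arrays 2, 3 and 4. With IL-4 in wild type 3 of the 18 were lower and 0 higher (median -0.02), led by Vegfa (-0.55, 2 of 3 probes), the vascular endothelial growth factor. Of 12 glucocorticoid-induced genes 0 passed in the knockout under vehicle (median -0.02), and 4 were higher and 2 lower with IL-4 in wild type (median 0.00). The cyclin-dependent kinase inhibitor Cdkn1c led the lower ones (-1.30) and Errfi1, an inhibitor of the epidermal growth factor receptor, the higher ones (0.63). The shares of all named genes belong beside these counts and those of the fibrinogen-like and integrin lists below. In the knockout under vehicle 1.42% were higher and 1.85% lower, and with IL-4 in wild type 7.14% were higher and 8.79% lower.

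Among 13 other genes of secreted proteins and matrix with a fibrinogen-like domain, 3 were higher and 1 lower in the knockout under vehicle, with a median of 0.00. Tnxb, a tenascin of connective tissue, was higher by 0.35 ± 0.05 (SE; 1 of 4 probes; limma adjusted p = 0.000754), and Tnc, the tenascin of wound repair, was lower by 0.31 ± 0.07 (1 of 6 probes; limma adjusted p = 0.0210), a call that ended without knockout vehicle array 3, without wild-type vehicle arrays 1 or 2, and without knockout vehicle arrays 2 and 3 together. Between IL-4 and vehicle in wild type Tnc was the 1 gene that rose, by 0.91 (4 of 6 probes), and 2 fell, Tnxb (-0.46, 3 of 4 probes) and Mfap4 (-0.11), with a median of 0.00. Leaving out any 1 of the wild-type IL-4 arrays 6, 7 and 8, or of arrays 1, 2 and 3 of the vehicle group, ended the Mfap4 call.

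Of 12 integrins and other reported partners of these proteins, 2 were higher and 0 lower in the knockout under vehicle (median 0.06). They were the integrin subunit Itgb5, by 0.33 ± 0.06 (SE; limma adjusted p = 0.00613), and the adhesion protein Vtn, by 0.20 ± 0.04 (limma adjusted p = 0.0216), and both calls ended without knockout vehicle arrays 2 and 3 together. Leaving out any 1 of knockout vehicle arrays 2 and 4 and wild-type vehicle arrays 1 and 3 also ended the Vtn call. IL-4 in wild type went with 3 higher and 0 lower (median 0.03), led by Itgb5 (0.78) and Itgav (0.29), whose products pair as a vitronectin receptor. In the knockout 0 members of any of these lists passed between IL-4 and vehicle, as of all probes.

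**Figure D4:**
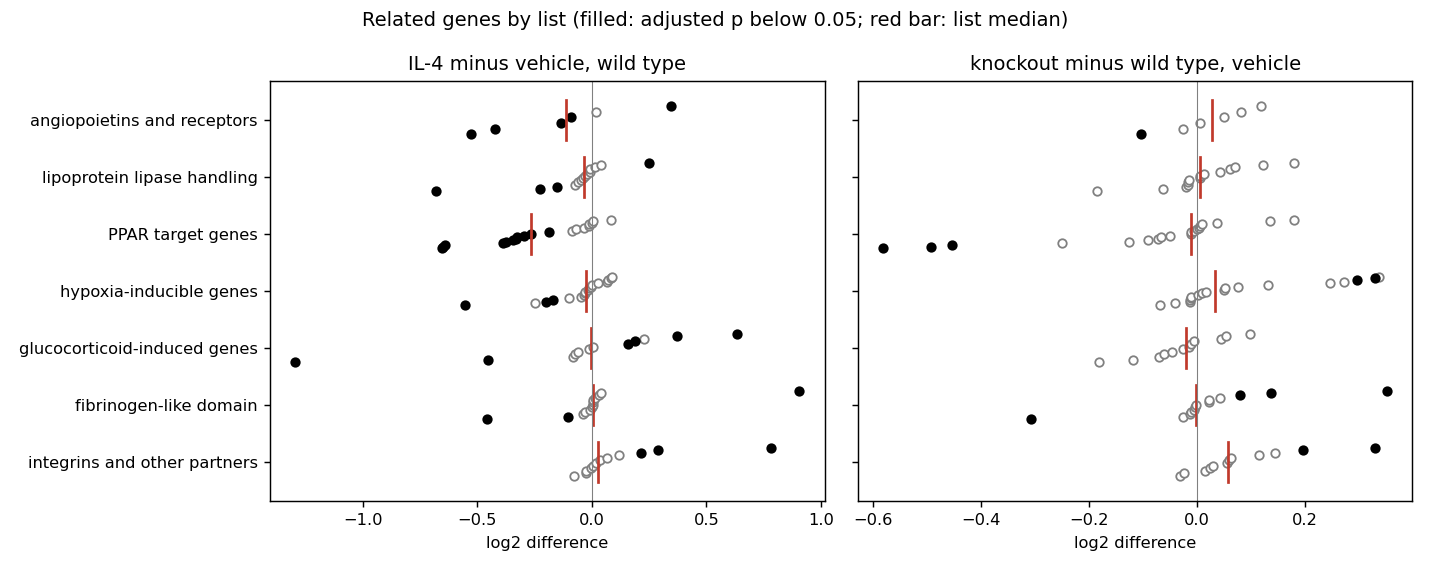
Log2 differences (x axes) of the genes of 7 related lists, 1 point per gene by its brightest probe, for IL-4 minus vehicle in wild type and for knockout minus wild type under vehicle. Filled points passed an adjusted p of 0.05 in limma and red bars are list medians, which lie at -0.27 and -0.01 for the PPAR target genes.

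The genes closest in pattern to Angptl7 over the 16 arrays were Kng1, Kng2 and Lyz1. Each was read from the brightest of its 3, 2 and 3 probes, in that order, and the other probes were not part of the search. Likeness was the root mean square difference between values centred on each probe's own mean, and was 0.154, 0.170 and 0.181 on the log2 scale. Kng1 and Kng2 encode kininogens, the precursors of bradykinin, and Lyz1 encodes a lysozyme, and each has a close paralog, so cross-reading between copies cannot be told apart. Kng1 had means of 11.91 and 11.92 in knockout cells with IL-4 and vehicle, and 9.83 and 11.29 in wild-type cells with IL-4 and vehicle. Kng2 had 10.27 and 10.23 in the knockout groups and 8.69 and 9.70 in the wild-type groups in the same order. Lyz1 had 10.57 and 10.58 in the knockout and 8.99 and 10.31 in wild type. Like Angptl7, all 3 were lowest in wild type with IL-4, and they were picked for that likeness.

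The genes closest to Angptl4 were Npy1r, a neuropeptide Y receptor, Ccn5, a matricellular protein, and Rpl12, a ribosomal protein, at 0.0932, 0.100 and 0.101. Under vehicle they were higher in the knockout by 0.32, 0.28 and 0.32, and under IL-4 by 0.48, 0.31 and 0.37. Between IL-4 and vehicle in wild type they differed by -0.10, -0.03 and -0.05. The span of the Angptl1 group means was 0.10, below the 0.25 set for this search.

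**Figure D5:**
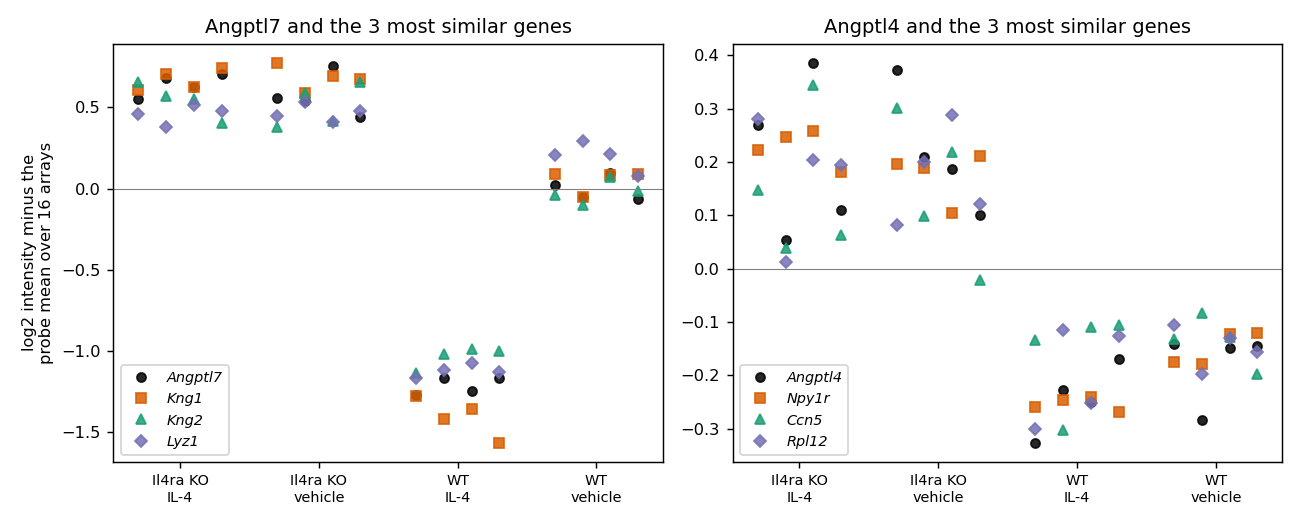
Log2 intensity minus the mean of the probe over 16 arrays (y axes) for Angptl7 and for Angptl4, each with its 3 most similar genes, with 1 point per gene and array in the 4 groups. The Angptl7 group is lowest in wild type with IL-4, and the Angptl4 group is higher on every knockout array than on any wild-type array.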

How the data were processed

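RNA on 16 Illumina MouseRef-8 v2.0 bead arrays (Cy3, per the labels' protocols) was analysed from the deposited table, with 1 value per probe and array. The authors' values are read as log2: they run from 7.72 to 14.8, and the arrays share nearly the same sorted values (largest gap 0.000592), a mark of quantile normalization. No source used here names the software, background correction or detection calls. All 25697 probes were used, 23978 of them with 1 symbol. A gene was read from its probe of highest mean.

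With R 4.3.3 and limma 3.58.1 1 model with the 4 group means was fitted over 16 arrays (residual degrees of freedom 12, empirical Bayes), giving 5 contrasts. P-values are two-sided, adjusted by Benjamini-Hochberg within each contrast, and 0.05 was the threshold. The code was tested on simulated data. The number of arrays limits the precision.

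Members, lists and tests were chosen with earlier results of these data known. Named genes were the members, from each list at most 2 genes that rose and 2 that fell, Lpl, Gpihbp1, Angpt1, Angpt2, Tek and Tie1, and the 3 genes closest in pattern to a member. All 3 member probes passed the filter on dim probes that was run as an alternative. Other alternatives were array weights, a trended robust variance, a subtracted minimum, only the groups compared, a replicate block and leaving out arrays. Promoter sequence is from RefSeq, GRCm38.p6.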

Additional observations from a re-analysis of the deposited data

Results flagged for a closer look

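The response to IL-4 differed between genotypes, by the interaction term over all probes, for 22 of the 37 genes examined here, and each value is the wild-type log2 response minus the knockout response. This contrast was passed by 8.39% of all probes, and most of the 37 genes were named for a large change in a contrast that shares its arrays, or for likeness to a member, so the choice sets the count. Among the angiopoietin-like genes it was Angptl7, at -1.28. Wild-type values of this gene were known beforehand. Among the angiopoietins the values were -0.47 for Angpt1, 0.36 for Angpt2 and -0.57 for Angpt4. The genes most similar to a member gave -1.44 for Kng1, -1.05 for Kng2, -1.31 for Lyz1 and -0.16 for Npy1r. Among the lipid genes the difference was -0.17 for Lpl, -0.73 for Apoe, -0.65 for Plin4, -0.66 for Fabp5 and -0.39 for Acaa2. Vegfa gave -0.47 and Hk2 -0.24. Of the glucocorticoid-induced genes, Errfi1 gave 0.70, Klf9 0.55, Cdkn1c -1.29 and Sgk1 -0.48. The matrix and adhesion genes gave 0.91 for Tnc, -0.42 for Tnxb and 0.78 for Itgb5.

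In 9 of 148 groups of 4 arrays, 1 array stood far from the rest, and chance alone would give about 1 in 20. The gap to the nearest array took 0.952 of the range for Angptl4 in wild type with vehicle, where array 2 was low (11.12 against 11.26 on the other 3). For Angpt2 in wild type with IL-4 it took 0.839, with array 6 low, and for Tek in wild type with vehicle 0.831, with array 2 low. The other shares were 1.0 for Lpl in the knockout with vehicle, where 3 values were equal, 0.954 for Kng1 in wild type with vehicle, 0.859 for Ccn5 in wild type with IL-4, 0.862 for Sel1l in the knockout with IL-4, and 0.962 for Apoe and 0.833 for Klf9 in the knockout with vehicle.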

How the results depend on the processing

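The genotype differences of Angptl7 and Angptl4 under vehicle passed under every alternative run, with log2 differences of 0.50 to 0.77 and 0.34 to 0.44. Members called were 2 for the genotype under vehicle and 0 for the knockout response under every alternative. With the array minimum subtracted (offset 16) the wild-type response was -2.52 for Angptl7 and -0.52 for Angptl1, the genotype difference under IL-4 was 3.38 and 0.18, and the interaction was -2.61 and -0.30, since this setting stretches values near the minimum. Probes called between genotypes under vehicle numbered 690, and 437 with the minimum subtracted, 354 with the replicate block, 245 at an adjusted p of 0.01, 385 without knockout vehicle arrays 2 and 3, and 426 to 823 with single arrays left out, the low end without wild-type vehicle arrays 1 (447), 2 (426) or 4 (456). Interaction calls numbered 2156, and 1266 at an adjusted p of 0.01. The trended, robust variance model called 1 probe in the knockout response, against 0. The Angptl4 knockout response, -0.01, ran from -0.0727 to 0.0393 and changed sign without knockout vehicle array 1 (0.0393) or knockout IL-4 arrays 2 (0.0377) or 4 (0.0193), never passing; the cause was not tested. The sample titles number the knockout arrays 1 to 4 in both media, but the wild-type arrays 1 to 4 with vehicle and 5 to 8 with IL-4. They do not say whether same-numbered knockout arrays share source cells. Nor do they link same-numbered knockout and wild-type arrays, so for the genotype comparison the replicate block is a matching by number only. Deviations of same-numbered arrays correlated at -0.24 to 0.16 over 11038 probes. With 4 arrays per group such correlations cannot show whether the samples are paired. With the replicate block the genotype differences passed at 0.57 for Angptl7 (limma adjusted p = 0.00812) and 0.40 for Angptl4 (0.0425), and the members' knockout response still did not pass. Under the block the vehicle genotype calls of Adm (0.113), Angptl8 (0.149), P4ha2 (0.0964) and Mfap4 (0.0591) ended, and with only the groups compared fitted those of Angptl8, Mfap4 and Vtn and the wild-type calls of Angptl8, Tek and Sel1l ended. Of 41 related results, 24 kept their call under every alternative, 17 lost it under some and 0 reversed. Each member has 1 probe, so averaging probes changes no member. Nearness to the array minimum limits Angptl1, and also Angptl7 in wild type with IL-4.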
